A study of Mus musculus with 3 samples.

Results

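The genes described here belong to families of ion channel subunits that include those shaping the heartbeat. They were measured in mouse heart tubes that lack the transcription factor gene Sox7 and in wild-type tubes. They were taken by symbol: potassium channel genes (Kcn followed by letters and a number), the Hcn genes, the sodium channel subunits (Scn) and the calcium channel subunits (Cacna, Cacnb and Cacng), with 10 or more reads in at least 1 library. Of 23337 genes in the files, 133 fitted the pattern and 69 of these reached the read minimum. A further 2 symbols are excepted by the rule and are not analysed here. The pattern takes whole gene families, so it also holds inward rectifiers and leak channels, which are not gated by voltage in the strict sense, and auxiliary subunits that form no pore.

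Bulk RNA-seq was done on 3 libraries of heart tubes at embryonic day 9.5. The Sox7-null group (-/-) held 2 libraries, Tube 1 and Tube 2, called Sox7-null 1 and Sox7-null 2 here, and the wild-type group held 1, Tube 3. The study asked which genes differ in the developing heart when Sox7, a SoxF factor of endothelium, is missing. The labels name neither the strain nor the structure of the null allele, and they do not say whether a tube is 1 embryo or a pool. The p-values rest on how far the null libraries lay from each other, moderated across genes, a spread that may be technical. No spread among wild-type tubes enters them.

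Each heartbeat is driven by currents through channels of these families, though not every member is a cardiac channel. A list of cardiac current genes holds 36 of the 68 members tested. Hcn channels carry the inward pacemaker current, sodium channels carry the fast upstroke, calcium channels admit the calcium that triggers contraction, and potassium channels repolarise the cell and hold its resting potential.

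Reads assigned to genes numbered 13139823 and 13618338 in the Sox7-null libraries and 13789388 in the wild type. Sox7 itself had 2 and 7 reads in the Sox7-null libraries, against 222 in the wild type, and fell by 5.63 ± 0.47 (SE) on the log2 scale (adjusted p = 3.81e-05 in edgeR). The protocol text names retinal organoids, but 4 of 8 retinal markers were at 0 in all 3 libraries, and the list summed to 1.41 and 0.435 CPM in the Sox7-null libraries and 1.28 CPM in the wild type. CPM is the read count scaled to library size with the TMM factors. The 14 cardiomyocyte markers summed to 25178 and 24169 CPM in the Sox7-null libraries, against 20837 CPM in the wild type. Of these markers 6 rose and 1 fell, beside 11.3% higher and 10.2% lower over all genes tested. After correction for transcript length and GC, 3 rose and 0 fell (background 7.9% and 8.0%). Myh7 held 4235 and 2490 CPM of the sums, against 730 in the wild type. Myl7, the highest marker, had 5098 and 6045 CPM, below the 6679 of the wild type, and was not called (adjusted p = 0.149 in edgeR). Its log2 fold change was -0.26, and 0.30 after the same correction. Reads aligned to several places made up 10.4% and 11.6% of the Sox7-null libraries and 22.3% of the wild type.

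Summed over all members, ion channel transcripts took a larger share of the library in the Sox7-null tubes. By gene, 45 of the 68 tested had a positive log2 fold change and 23 a negative one. The 69 genes held 0.106% (95% Wilson interval 0.104 to 0.108) and 0.0934% (0.0918 to 0.0950) of gene reads in the Sox7-null libraries, against 0.0629% (0.0616 to 0.0643) in the wild type. These intervals cover counting error only, and reads are not independent molecules. In bulk tissue, more cells of a type and more RNA per cell cannot be told apart. Of the 68 members that passed the filter on low counts, 13 rose, 1 fell and 54 did not pass an adjusted p under 0.05 in edgeR's quasi-likelihood test. In the same fit 21.6% of all 13334 genes tested were called, 11.3% higher and 10.2% lower. Members were called at 20.6%, near that background, with 19.1% higher and 1.47% lower. Their median log2 fold change was 0.37, against 0.01 over all genes tested.

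Other tools gave the same imbalance with fewer calls. DESeq2 called 8 of the 46 members to which it gave an adjusted p higher (17.4%, background 8.3%) and 0 lower (background 5.75%). At an unadjusted p under 0.05 it had 14 higher and 0 lower. Limma-voom called 11 of 68 higher (16.2%, background 9.39%) and 1 lower (background 9.73%). EdgeR without the filter on low counts called 0 of 17242 genes, with 4113 genes, 20 members among them, at an unadjusted p under 0.05.

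Without a test, both null libraries lay above the wild type for 38 of the 68 members (55.9%) and below it for 19 (27.9%), where the background shares were 43.1% and 43.0%. The 2 comparisons share 1 wild-type library and are no independent repeats. By a rule of at least 1 on the log2(CPM + 0.5) scale in both null libraries, 8 of the 68 were higher (11.8%) and 1 lower (1.47%), with backgrounds of 5.24% and 2.71%. This scale understates the difference of genes with few reads.

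**Figure D1:**
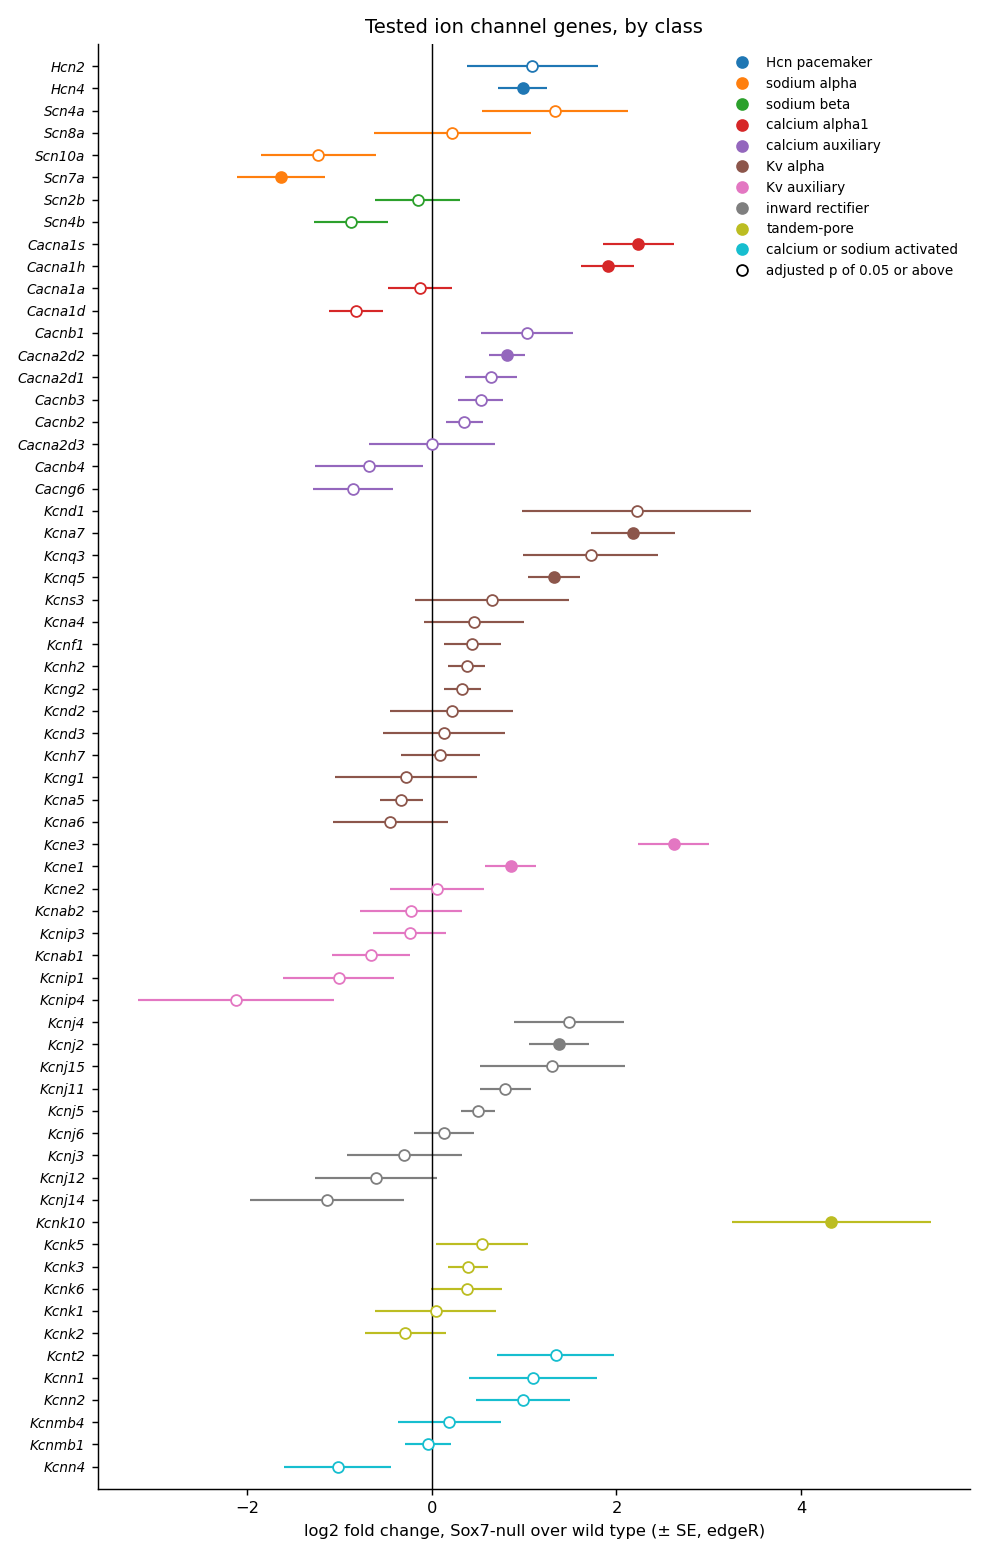
Log2 fold change of Sox7-null over wild type (x axis) for 64 tested ion channel genes, grouped and coloured by class, as edgeR estimates with SE bars. Filled points are 10 genes that rose and the 1 that fell. Open points, 53 genes, lie on both sides of 0.

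Among the pacemaker channels, Hcn4, the main Hcn channel of the embryonic heart and the sinoatrial node, rose. It had 248 and 228 reads (18.4 and 16.5 CPM) in the Sox7-null libraries, against 117 reads (8.82 CPM) in the wild type. Both null values were above the wild type, by 0.98 ± 0.27 on the log2 scale (adjusted p = 0.0206 in edgeR). It did not pass with DESeq2 (adjusted p = 0.0998), and its value after removal of the trend on length and GC was 0.39 (adjusted p = 0.327 in edgeR). Hcn2 had 26 and 18 reads in the Sox7-null libraries and 10 in the wild type and did not pass (1.09 ± 0.70). Hcn3 stayed under the read minimum, with 7 and 7 reads against 9.

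Of the 5 tested pore-forming sodium channel genes 1 rose and 1 fell, and of the 3 tested beta subunit genes 1 rose and 0 fell. Over all genes tested, 11.3% rose and 10.2% fell. After the trend was removed, 0 pore-forming genes were higher and 1 was lower, and 1 beta subunit gene was called in each direction. The background shares were then 7.9% higher and 8.0% lower. Scn7a, an atypical family member known as a sensor of sodium in the brain, was the only one of all 68 tested members called lower. It had 17 and 22 reads in the Sox7-null libraries, fewer than the 59 of the wild type, at -1.63 ± 0.48 on the log2 scale (adjusted p = 0.0288 in edgeR, 0.255 in DESeq2). The beta4 gene Scn4b had 38 and 64 reads, fewer than the 91 of the wild type, and missed the threshold (-0.88 ± 0.40).

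Of the 4 tested pore-forming calcium channel genes 2 rose and 0 fell, and of the 8 tested auxiliary ones 1 rose and 0 fell. Over all genes tested, 11.3% rose and 10.2% fell. Cacna1h, which encodes the T-type channel Cav3.2, had 1710 and 1072 reads (126.9 and 77.8 CPM) in the Sox7-null libraries, against 362 (27.3 CPM) in the wild type. It rose by 1.91 ± 0.29 on the log2 scale (adjusted p = 0.00113 in edgeR), and its null libraries lay closer to each other than to the wild type on that scale. Cacna1s, the L-type channel of skeletal muscle, had 222 and 146 reads in the Sox7-null libraries, against 38 in the wild type, and rose by 2.24 ± 0.38 (adjusted p = 0.00207 in edgeR). All 6 skeletal muscle markers, among them Myod1 and Myog, had 0 reads in every library. The alpha2delta2 subunit gene Cacna2d2 had 1737 and 1746 reads against 964 and rose by 0.81 ± 0.19 (adjusted p = 0.0104 in edgeR), a difference of 0.30 that did not pass once the length and GC trend was removed.

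Cacna1d, the L-type channel of pacemaker cells, pointed the other way. It had 91 and 109 reads (6.75 and 7.91 CPM) in the Sox7-null libraries, against 172 (13.0 CPM) in the wild type, and missed the threshold at -0.82 ± 0.29 on the log2 scale (adjusted p = 0.0612 in edgeR). The T-type gene Cacna1g stayed under the read minimum with 6 and 3 reads against 4. Of the auxiliary subunits, Cacnb2 (816 and 788 reads against 611), Cacnb3 (298 and 265 against 190), Cacna2d1 (428 and 283 against 222) and Cacnb1 (59 and 42 against 24) were above the wild type in both null libraries without passing the test. Their log2 fold changes were 0.35 for Cacnb2, 0.53 for Cacnb3, 0.64 for Cacna2d1 and 1.03 for Cacnb1.

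Of 16 tested pore-forming genes of the voltage-gated potassium channels, 3 rose in edgeR and 0 fell, where 11.3% and 10.2% of all genes were called in these directions. At an unadjusted p under 0.05, 4 were higher and 0 lower, and 3 were higher and 1 lower after removal of the length and GC trend. Kcna7 (Kv1.7) and Kcnq5 were among the genes that rose. Kcna7 had 108 and 79 reads in the Sox7-null libraries, against 20 in the wild type, and rose by 2.18 ± 0.45 (adjusted p = 0.00554 in edgeR). Kcnq5, which carries an M-type current in neurons, had 440 and 306 reads against 145 and rose by 1.33 ± 0.28 (adjusted p = 0.00638 in edgeR). For both genes Sox7-null 1 was the higher of the null libraries.

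Other voltage-gated potassium channel genes were not called. Kcnh2, the rapid delayed rectifier, had 930 and 888 reads in the Sox7-null libraries and 680 in the wild type (0.38 ± 0.20, adjusted p = 0.197 in edgeR), and its value was -0.13 with a length and GC trend removed. Kcna5, the ultrarapid delayed rectifier, had 208 and 245 reads against 277 (-0.33 ± 0.23). The genes of the transient outward current were low in all libraries. Kcnd2 had 36 and 14 reads against 21, Kcnd3 had 21 and 15 against 16, and Kcna4 had 31 and 31 against 22. Kcnip2, a partner of the Kcnd channels, stayed under the minimum, with 4 and 2 reads against 1. Kcnq3, an M-current partner, had 23 and 25 reads, against 7 in the wild type. It lay past 1 on the log2(CPM + 0.5) scale in both null libraries and was not called (1.72 ± 0.73, adjusted p = 0.110 in edgeR). It reached the read minimum in the Sox7-null libraries alone, so the minimum itself selects it for a difference.

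Among the small auxiliary subunits, Kcne3 had 138 and 154 reads (10.2 and 11.2 CPM) in the Sox7-null libraries, against 23 (1.73 CPM) in the wild type. It rose by 2.62 ± 0.38, and its adjusted p of 0.00100 in edgeR was the smallest of the tested members. Kcne1, the subunit of the slow delayed rectifier, had 363 and 253 reads against 166 and rose by 0.85 ± 0.28 (adjusted p = 0.0452 in edgeR). It passed neither with DESeq2 (adjusted p = 0.151) nor with limma-voom (adjusted p = 0.0712). Kcne2 had 32 and 30 reads against 29. The beta subunit gene Kcnab1 had 43 and 35, below the 60 of the wild type, and did not pass (-0.66 ± 0.43).

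The inward rectifiers hold the resting potential. Kcnj2, the classical inward rectifier Kir2.1, had 310 and 197 reads (23.0 and 14.3 CPM) in the Sox7-null libraries, against 95 (7.16 CPM) in the wild type, and rose by 1.38 ± 0.33 (adjusted p = 0.0108 in edgeR). Both null values were above the wild type, with Sox7-null 1 the higher. Kcnj5, a subunit of the acetylcholine-gated channel, had the most reads of the members, 1800 and 1891 against 1268, and missed the threshold (0.50 ± 0.19, adjusted p = 0.0728 in edgeR). Its partner Kcnj3 had 26 and 14 reads against 24. Kcnj11, the pore of the ATP-sensitive channel, had 316 and 233 reads against 154 (0.80 ± 0.27, adjusted p = 0.0552 in edgeR). Kcnj12 had 10 and 21 against 23, and Kcnj8 stayed under the minimum with 2 and 4 against 4.

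In the tandem-pore leak channels, Kcnk10 (TREK-2) had 22 and 24 reads in the Sox7-null libraries and 1 in the wild type. The ratio of summed reads was 22.4 (95% exact interval 3.82 to 903, counting error only), and the gene rose (adjusted p = 0.0139 in edgeR). Of the 69 members, 7 reached the read minimum in the Sox7-null libraries alone, Kcnk10 among them, and 3 in the wild type alone, so that the minimum itself selects such genes for a difference. Kcnk3 (TASK-1) had 363 and 387 reads, more than the 278 of the wild type, without passing. Its log2 fold change was 0.39, turning to -0.0208 after removal of the length and GC trend. Kcnk1, Kcnk2 and Kcnk6 did not pass either, at 0.04 for Kcnk1, -0.28 for Kcnk2 and 0.38 for Kcnk6.

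The class of channels gated by calcium or sodium inside the cell held 6 tested members, auxiliary beta subunits among them. Of these 6, 0 rose and 0 fell in edgeR, DESeq2 and limma-voom. In edgeR 11.3% of all genes rose and 10.2% fell. In these 3 tools 0 of the 6 had an unadjusted p under 0.05. With the length and GC trend removed, 1 was higher at an unadjusted p under 0.05 in edgeR, and 0 were called. Kcnmb1, the beta1 subunit of the large-conductance channel, had 431 and 655 reads in the Sox7-null libraries and 542 in the wild type, which lay between them. The pore gene Kcnma1 stayed under the minimum with 3 and 4 reads against 5. The small-conductance genes Kcnn1 (35 and 18 reads against 12) and Kcnn2 (55 and 39 against 23) were above the wild type in both null libraries. Kcnn4, the intermediate-conductance channel of red blood cells, had 13 and 45 reads against 57, with the null libraries 3.39-fold apart. The 6 erythroid markers summed to 4511 and 14332 CPM in the Sox7-null libraries and 13894 CPM in the wild type, and their part in the Kcnn4 values was not tested.

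**Figure D2:**
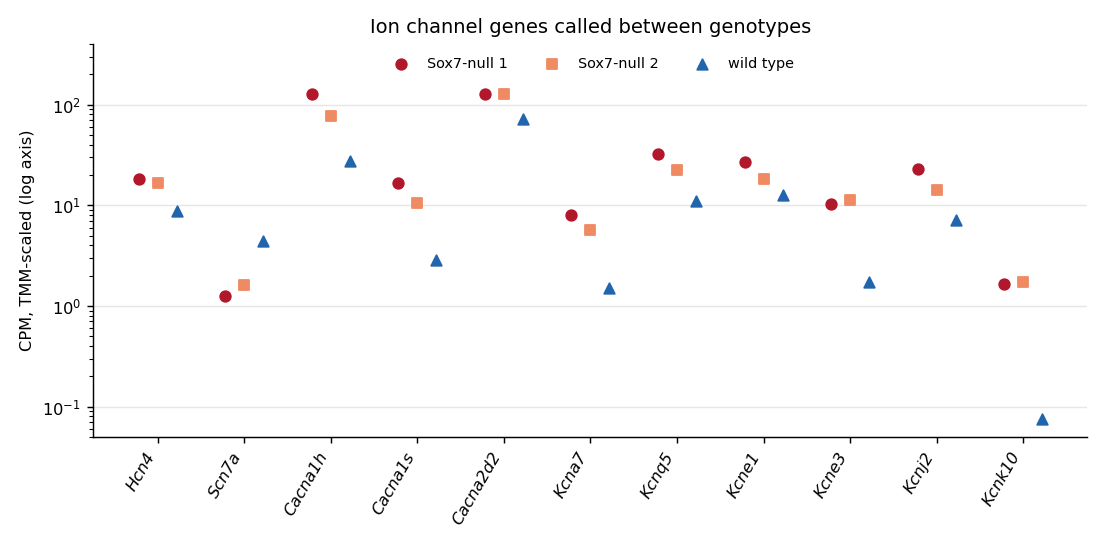
CPM (log axis) in each library for 11 called ion channel genes: circles and squares are Sox7-null 1 and 2, triangles the wild type. For 10 genes both null points lie above the wild type, and for Scn7a both lie below it. Kcnk10 is the lowest in the wild type, with 1 read.

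Of the 36 tested genes on a list of cardiac currents, 9 rose and 0 fell, beside 11.3% higher and 10.2% lower over all genes. At an unadjusted p under 0.05 in edgeR 13 were higher and 2 lower, and the median log2 fold change was 0.42. With the length and GC trend removed, 5 were higher and 2 lower (background 7.9% and 8.0%), and the median was 0.24. DESeq2, which gave some of these genes no adjusted p, called 5 higher and 0 lower (background 8.3% and 5.75%). Hcn4, Cacna1h, Cacna2d2, Kcne1, Kcne3 and Kcnj2 were among those that rose in edgeR. The called members outside that list were Cacna1s, Kcna7, Kcnq5, Kcnk10 and Scn7a.

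Levels summed within a class were higher in both null libraries for every class but the calcium- or sodium-activated one, and these sums rest on a few abundant genes. The sums used CPM per kilobase of the longest GENCODE transcript, so that genes of different length could be added. Pore-forming calcium channels summed to 19.4 and 12.7 CPM per kilobase in the Sox7-null libraries, against 5.89 in the wild type, 2.73-fold higher on average. Cacna1h held 15.4 and 9.45 of these sums, against 3.32, and 2 of the 4 genes, Cacna1a and Cacna1d, had negative log2 fold changes. Without Cacna1h the sums were 4.03 and 3.23, against 2.57 (1.41-fold). The Hcn genes summed to 3.77 and 3.30 against 1.91 (1.85-fold). Voltage-gated potassium pore genes summed to 58.5 and 52.5 against 42.7 (1.30-fold). In the calcium- or sodium-activated class the null libraries, at 11.3 and 14.9, lay on either side of the wild type at 12.9. Medians of log2 fold change over genes did not follow the sums in every class: they were -0.23 for the auxiliary subunits of voltage-gated potassium channels (3 positive and 5 negative) and -0.15 for the sodium beta subunits (1 positive and 2 negative). Leaving out the highest gene of each class, an alternative chosen after seeing the data, put both sodium channel classes below the wild type in both null libraries and the calcium- or sodium-activated class above it. No test was run on these sums.

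**Figure D3:**
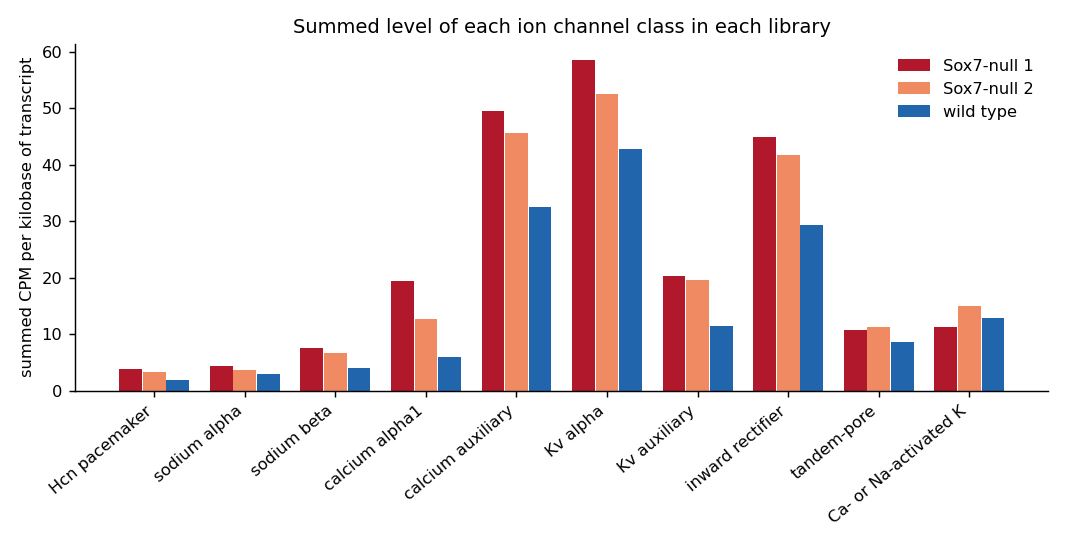
Summed CPM per kilobase of transcript (y axis, from 0) for each ion channel class, 1 bar per library, with the null libraries left of the wild type. Pore-forming calcium channels stand at 19.4 and 12.7 in the null bars, against 5.89 in the wild-type bar.

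Per kilobase of transcript, Kcnj5, Cacna2d2, Kcng2 and Kcnh2 were the 4 highest genes in both genotypes. Kcnj5 led, with 28.5 and 29.3 CPM per kilobase in the Sox7-null libraries and 20.4 in the wild type. Cacna2d2 had 22.2 and 21.8 in the Sox7-null libraries, against 12.5 in the wild type. Kcng2 averaged 21.9 ± 1.25 (SD, n = 2) in the Sox7-null libraries, against 17.4 in the wild type, so the order of Cacna2d2 and Kcng2 in the null tubes is within their spread. Kcng2 encodes a modifier subunit that forms no channel alone, and its 865 and 816 reads against 650 did not pass (0.33 ± 0.20). Kcnh2 followed with 16.3 and 15.3 against 12.1. Cacna1h was at rank 5 in the Sox7-null tubes and 12 in the wild type, Kcne3 at 8 and 25, and Cacna1s at 21 and 44.

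**Figure D4:**
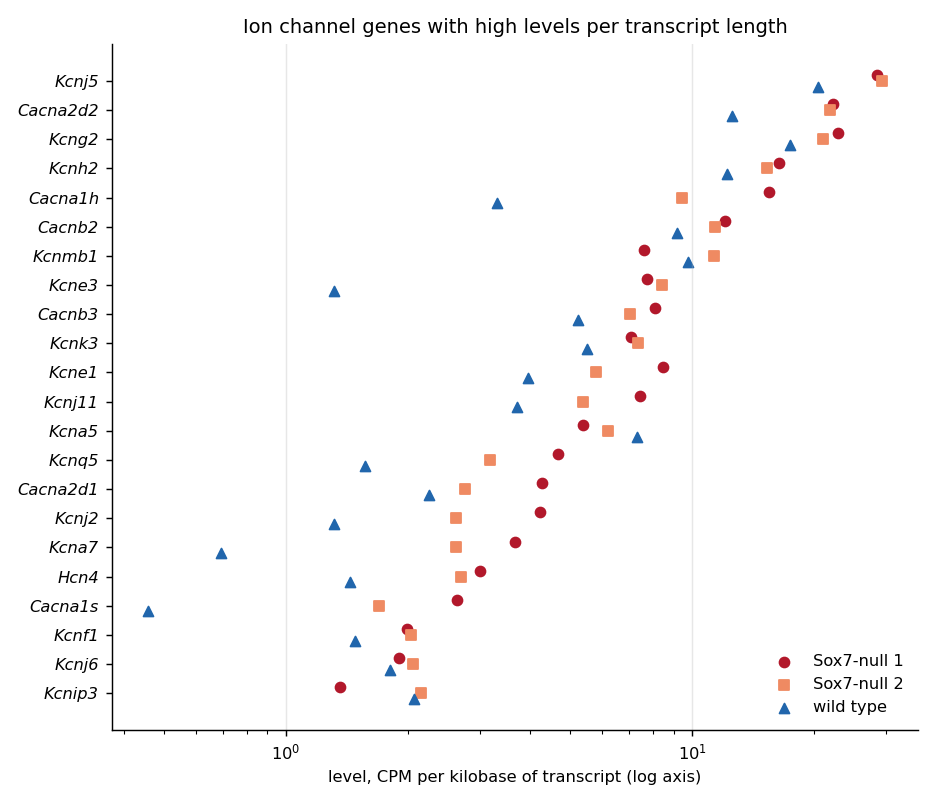
Level in CPM per kilobase of transcript (log axis) for 22 ion channel genes with high null means, ordered from the top. For Cacna1h, Kcne3, Kcna7 and Cacna1s the wild-type triangle lies far to the left of both null points. For Kcna5 it lies right of both, and for Kcnmb1 between them.

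Transcript length and base composition moved with the differences. A smooth trend on length and GC content was fitted over all genes and removed before the test. The tested members had a median length of 4302 bases and 51.8% GC, against 3427 bases and 49.7% over all genes, and they shifted by a median of -0.20 on the log2 scale, against -0.06 over all genes. Their median log2 fold change was then 0.15, with 9 higher (13.2%, background 7.9%) and 3 lower (4.41%, background 8.0%), where 15.9% of all genes were called. Among the genes called before, Hcn4 (0.39), Cacna2d2 (0.30) and Kcne1 (0.69) no longer passed, with adjusted p = 0.327 for Hcn4, 0.305 for Cacna2d2 and 0.0884 for Kcne1 in edgeR. The 9 genes called higher had all been called before, among them Kcne3 (3.07), Kcnj2 (1.35), Kcna7 (1.98), Kcnq5 (1.02), Cacna1h (1.16), Cacna1s (1.74) and Kcnk10 (4.07). Scn7a remained lower and was joined by Cacna1d (-1.25 ± 0.30, adjusted p = 0.0117 in edgeR) and Scn4b (-1.28 ± 0.40, adjusted p = 0.0434 in edgeR).

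**Figure D5:**
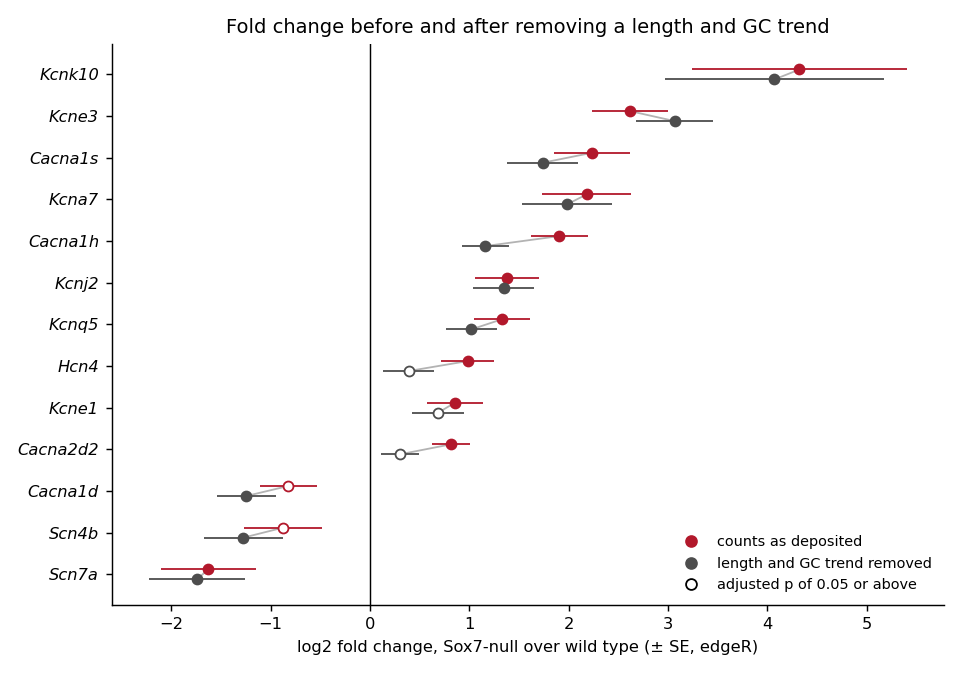
Log2 fold change with SE for 13 ion channel genes called before or after a length and GC trend was removed. Filled points passed an adjusted p under 0.05. Hcn4, Kcne1 and Cacna2d2 turn from filled to open, and Cacna1d and Scn4b from open to filled.

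Of the 69 members, 52 had a RefSeq promoter (build GRCm38.p6, 250 bases before to 50 after the start), 9 of the 14 called members among them. Both strands were searched for ACGTG, the core bound by hypoxia-inducible factors, and AACAAT, a core bound by Sox factors. ACGTG was found for 21.2% of the members, against 29.4% of all tested genes with a promoter and 21.8% of all genes in the table. AACAAT was found for 9.62% of the members, against 7.21% of the tested genes and 12.2% of the table. Of the 8 genes called higher that had a promoter, 2 held ACGTG and 1 held AACAAT. A match is only a match of letters. The 250 bases before the first listed start are shown for those 3 genes, and for Scn7a as the only member called lower, in which neither motif was found. Motif letters are in capitals:
Kcne3, chr7:100176420-100176669, plus strand: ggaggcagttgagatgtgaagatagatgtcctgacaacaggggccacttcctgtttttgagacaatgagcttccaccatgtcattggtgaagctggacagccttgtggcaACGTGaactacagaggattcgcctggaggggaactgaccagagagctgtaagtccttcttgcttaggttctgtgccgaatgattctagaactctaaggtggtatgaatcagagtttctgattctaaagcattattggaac
Kcnj2, chr11:111065914-111066163, plus strand: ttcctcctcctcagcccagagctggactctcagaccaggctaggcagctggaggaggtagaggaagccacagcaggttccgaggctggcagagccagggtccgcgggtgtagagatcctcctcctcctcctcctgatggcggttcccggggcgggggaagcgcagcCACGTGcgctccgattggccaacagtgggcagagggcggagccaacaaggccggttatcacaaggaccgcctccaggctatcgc
Kcnq5, chr1:21962651-21962900, minus strand: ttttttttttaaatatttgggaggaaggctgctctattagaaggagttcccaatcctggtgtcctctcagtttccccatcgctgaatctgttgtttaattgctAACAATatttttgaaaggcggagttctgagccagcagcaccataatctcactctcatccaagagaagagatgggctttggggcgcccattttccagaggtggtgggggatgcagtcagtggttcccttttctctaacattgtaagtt
Scn7a, chr2:66784911-66785160, minus strand: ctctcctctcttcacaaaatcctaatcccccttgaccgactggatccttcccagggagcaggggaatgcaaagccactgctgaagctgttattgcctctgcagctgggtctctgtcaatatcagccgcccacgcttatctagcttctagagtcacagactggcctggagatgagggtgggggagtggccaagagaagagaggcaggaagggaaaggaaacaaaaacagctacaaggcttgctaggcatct
ACGTG begins 140 bases before the start in Kcne3. In Kcnj2 it overlaps its own reverse complement, 84 and 83 bases before the start. AACAAT begins 147 bases before the start in Kcnq5.

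Genes that work with these channels but fall outside the symbol pattern were also read. Of 27 tested partners, 8 rose and 5 fell, beside 11.3% higher and 10.2% lower over all genes, and the median log2 fold change was 0.31. After removal of the length and GC trend, 6 were higher and 6 lower, and the median was 0.07. Dpp6, an auxiliary subunit of transient outward channels, had 562 and 272 reads in the Sox7-null libraries, against 16 in the wild type, and rose by 4.66 ± 0.51 (adjusted p = 0.000217 in edgeR). Abcc8, the sulfonylurea receptor that pairs with Kcnj11, had 82 and 38 reads against 13 and rose by 2.16, whereas its relative Abcc9 had 970 and 764 against 839 and did not pass. The rise of Abcc8 was lost with DESeq2 (adjusted p = 0.0909) and with the trend removed (adjusted p = 0.0671 in edgeR). Fgf12, an intracellular modulator of sodium channels, had 72 and 46 reads against 8 and rose by 2.83, and its relative Fgf11 had 34 and 27 against 3. The other genes that rose were Sntb1 (2.14), Dlg4 (1.19), Ank2 (0.87) and Rrad (0.78), an inhibitor of L-type channels. Of these, Ank2 was lost with DESeq2 (adjusted p = 0.112) and with the trend removed (0.41), and Sntb1 with DESeq2 (adjusted p = 0.120). Cav3, which organises caveolae in muscle membranes, had 77 and 73 reads in the Sox7-null libraries, fewer than the 264 of the wild type, at -1.85 ± 0.27 on the log2 scale (adjusted p = 0.00104 in edgeR). Rangrf, a Ran-binding protein known to help sodium channels reach the membrane, had 314 and 361 reads against 708 and fell too, as did Gpd1l (-0.68) and Calm2 (-0.55). DESeq2 gave adjusted p = 0.147 for Gpd1l and 0.0982 for Calm2, and Calm2 was at 0.07 with the trend removed.

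Of 12 transcription factor genes of the pacemaker and conduction system, 0 rose and 0 fell in edgeR, beside 11.3% and 10.2% over all genes. At an unadjusted p under 0.05 in edgeR, 3 were higher and 3 lower. DESeq2 and limma-voom also called 0. Tbx3, which marks the conduction system, had 235 and 300 reads in the Sox7-null libraries, against 393 in the wild type (log2 fold change -0.60, adjusted p = 0.0804 in edgeR). With the length and GC trend removed, Tbx3 (-0.99) and Irx3 (-0.93) were called lower (adjusted p = 0.00996 and 0.0297 in edgeR).

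Markers of other cell types that could carry channel transcripts were also read. The 20 neural markers summed to 85.6 and 78.2 CPM in the Sox7-null libraries, against 62.3 CPM in the wild type, with Sox1, Neurod1, Neurog1 and Neurog2 at 0 in all 3 libraries. These sums rest in large part on Gap43, at 40.9 and 49.3 CPM in the Sox7-null libraries, against 23.9 in the wild type. Elavl4 went the other way, with 5.19 and 5.95 CPM against 11.5. Of the 11 tested, Gap43 rose and Elavl4 fell, Elavl4 with an adjusted p of 0.0615 once the trend was removed in edgeR. Smooth muscle and mural markers summed to 5082 and 6626 CPM in the Sox7-null libraries and 4504 CPM in the wild type. Of these 8, 3 rose and 0 fell (3 and 1 with the trend removed). Among all genes tested, 11.3% rose and 10.2% fell (7.9% and 8.0% with the trend removed). The 6 megakaryocyte markers all rose and summed to 230.3 and 135.2 CPM against 35.1. The 10 endothelial and endocardial markers summed to 547.6 and 525.5 CPM against 514.9, and 3 rose and 2 fell (1 and 2 with the trend removed). Liver bud and foregut markers summed to 2.00 and 1.45 CPM against 44.9, and 5 of 6 fell. The part of these cell types in the channel results was not tested.

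At the edge of the read minimum, Kcnv2 had 1 and 1 reads in the Sox7-null libraries and 11 in the wild type. It reached the minimum in the wild type alone, where it was high, did not pass the filter for testing, and no ratio is given. Kcnip4 had 2 and 3 reads against 11, also reached it in the wild type alone, and was not called. Among the genes just outside the minimum were, besides Hcn3, Kcna3 (9 and 9 reads against 2), Kcnab3 (9 and 9 against 6), Cacna1e (8 and 7 against 1), Kcnc4 (0 and 5 against 8), Kcnh6 (7 and 2 against 1), Kcnn3 (4 and 6 against 7) and Scn3b (7 and 0 against 0). Exons of 6 of the 14 called members overlap another gene annotated in GENCODE, among them Cacna1h with Tpsg1 and Cacna1s with an antisense gene. Reads of such pairs cannot be told apart without the strand setting, and Tpsg1 had 0 and 1 reads in the Sox7-null libraries and 0 in the wild type.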

How the data were processed

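The 3 libraries of mouse heart tubes were grouped by the genotype in the labels. Each deposited file lists raw counts of reads for every gene symbol of 1 library. The submitters' processing notes name the tools CASAVA, TopHat2, HTSeq and DESeq2 (version 1.10.1) and human genome builds, which do not match the mouse symbols. Which annotation was used, and whether strand was, is not given in the sources used here. Per the labels' protocols, libraries came from a stranded total RNA kit. Summary lines that name no gene (no feature: 8.10% and 8.52% of the null libraries, 11.7% of the wild type; ambiguous: 2.27% and 2.29%, against 1.97%; and the multiply aligned reads) were left out.

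Counts were tested with edgeR 4.0.16 (TMM, filterByExpr with a minimum count of 10, glmQLFit and glmQLFTest, Benjamini-Hochberg adjustment over 13334 genes), after a check on simulated data. The fit had 1 residual degree of freedom, from the null libraries, and takes the single wild-type library to have their spread. The SE is the log2 fold change divided by the root of F. The chi-square per degree of freedom was 19.6 between the null libraries, so they were counted as separate. Alternatives were DESeq2 1.42.0, limma-voom 3.58.1, other scalings and filters, and a trend on transcript length and GC (mgcv 1.9.3, GENCODE M21 transcripts, matched for 99.0% of tested genes). Levels per kilobase and the trend used the longest GENCODE transcript of each gene. Named genes were the called members, a list of cardiac current genes, the 5 highest levels, uncalled members past a 2-fold difference in both null libraries, and genes at the read minimum. Some genes that met these rules are not reported here by name, in text or figures, and remain in the counts and sums. The members and lists were chosen with earlier results of these data known.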

Additional observations from a re-analysis of the deposited data

How the results depend on the processing

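With 2 libraries against 1, calls rest on the spread between the null libraries and on moderation across genes. Without a filter on low counts edgeR called 0 genes of 17242 and 0 members higher or lower (4113 genes and 20 members at an unadjusted p under 0.05, smallest adjusted p = 0.122), where DESeq2 called 968 higher and 671 lower over all genes, and 8 members higher and 0 lower. Among the calls DESeq2 lost were Hcn4 and Kcne1, and it gave Kcnk10 no adjusted p. Scn7a was lost there (adjusted p = 0.255), and requiring 5 CPM on average, under which Kcnk10 and Scn7a were not tested and Kcne1 was lost, left 0 lower. Limma-voom called 11 members higher, without Kcne1 (adjusted p = 0.0712). Once the length and GC trend was removed, 3 members were lower. The members' median log2 fold change was 0.45 with library size only, 0.59 at a mean of at least 5 CPM and 0.15 with the trend removed, where Kcnd3 (-0.22), Kcng2 (-0.0017), Kcnh2 (-0.13) and Kcnk3 (-0.021) changed sign. Kcnmb1 (-0.04) changed sign with library size only (0.042), under which Kcnj11 and Kcnj5 passed.

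With 1 null library against the wild type there was no test, and genes past 1 on the log2(CPM + 0.5) scale were counted. Leaving out each null library in turn gave 9 to 19 members higher, 1 to 6 lower and medians of 0.28 to 0.39, and over all genes 765 to 1421 higher and 479 to 1029 lower. The lower end came in each case without Sox7-null 1. Kcnj2 stood at 0.95 and Kcnq5 at 0.99 without it. With a pseudocount of 1, 1 member was lower by at least 2-fold in both null libraries, against 2 of 69 with 0.5. Without Kcnj5 the members held 0.0925% and 0.0795% of gene reads in the Sox7-null libraries and 0.0537% in the wild type. No paired analysis was possible because the groups share no replicate numbers.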
